A study of Mus musculus with 8 samples.

Results

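The 9 genes described here are Mpo, Elane, Ltf, Lcn2, Ngp and Camp, which encode proteins of neutrophil granules, S100a8 and S100a9, which encode calcium-binding proteins of the neutrophil cytosol, and Csf3r, the receptor for granulocyte colony-stimulating factor. They were chosen by name, and a probe was taken as a member where the RefSeq accession in the array files belonged to one of them. This gave 10 probes for 9 genes, of 55681 probes and 21368 named genes in all, with 2 probes for Camp and 1 for each other gene. The RNA came from mouse breast tumours on the FVB background, in 2 groups of 4 samples. The FGFR1 KO samples came from mice with K19-tva and a loxP-flanked Fgfr1 on both copies (fgfr1loxP/loxP), an allele from ICR stock that was backcrossed into FVB. The WT samples came from control mice with K19-tva, so both groups carried K19-tva, a transgene in which the keratin 19 promoter directs tva, a receptor for avian leukosis viruses. How the tumours were started, how Fgfr1 was deleted, the ages of the mice and whether each sample was a separate animal are not given in the sources used here. The p-values therefore measure only the spread between these samples.

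Each sample was on 1 array, where tumour RNA was read in red beside a human reference RNA in green, and a level is given as the log2 ratio of red over green after normalization. Fgfr1 itself, at its brightest probe, was at 0.45, 0.27, 0.32 and 0.19 on FGFR1 KO 1 to 4, and at 0.28, 0.23, 0.38 and 0.33 on WT 1 to 4, so the groups overlapped. They overlapped at its other 2 probes too, with log2 differences of -0.10 and -0.49. The probe at -0.49 lay in the area with bright negative controls described below. FGFR1 KO 4 was at -1.99 there, beside 0.57, 0.18 and 1.76 on FGFR1 KO 1 to 3. Where the Fgfr1 probes lie relative to the deleted part is not known from the files used, so the groups are named by their labels alone. Because the ratios were normalized within each array, 0 is the centre of the array's ratios at that brightness and not equal raw signal in both colours. Ratios were compared between samples at 1 probe, not between probes. All 8 arrays lay on 1 slide, FGFR1 KO in its first row and WT in its second, so genotype and the row of the slide cannot be told apart. Red signal was well above background on 68.88 to 83.88% of probes on the FGFR1 KO arrays and on 43.94 to 69.22% on the WT arrays. A probe could pass on 1 array and fail on another with more background-subtracted red signal, as at Ngp and Mpo below. WT 2 stood apart: its log2 ratios correlated with those of the other arrays at 0.379 on average, where the same mean was 0.598 to 0.713 for the others. In an area of 240 rows by 82 columns, from row 97 and column 83 on, negative control spots reached a background-subtracted red signal of at most 23 on FGFR1 KO arrays and of 387, 1338.5, 267 and 456.5 on WT 1 to 4. Their median there was 0 to 6 on FGFR1 KO arrays and 35.5, 6.25, 41 and 6 on WT 1 to 4, so on WT 2 and WT 4 most were not bright. Outside the area they reached 18.5 to 81 on FGFR1 KO arrays and 98, 37, 37 and 37 on WT 1 to 4. Lcn2 and the brighter Camp probe lay inside that area and the other 8 probes outside it.

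Neutrophils are short-lived white blood cells that form in the bone marrow and leave the blood at sites of injury, infection and tumour growth. Their granule proteins are made in order as the cells mature: the primary granule proteins Mpo and Elane at the promyelocyte stage, and the secondary granule proteins Ltf, Lcn2, Ngp and Camp later. S100a8 and S100a9 pair into calprotectin, which makes up much of the cytosolic protein of mature neutrophils and is also found in monocytes. Some of these genes are not restricted to neutrophils, since Ltf and Lcn2 are also made by mammary and other secretory epithelia. In pieces of whole tumour, fewer cells of a type and less RNA per cell cannot be told apart.

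No difference between FGFR1 KO and WT passed the test for any of the 9 genes. All 9 passed the filter for testing, and at 6 of the 10 probes red exceeded background clearly on each of the 8 arrays. In limma's moderated test with Benjamini-Hochberg adjustment over 39795 probes, 0 of 9 genes passed an adjusted p of 0.05, where 0.0101% of all tested probes did. At an unadjusted p of 0.05 over all 8 arrays the count was also 0 of 9, with 8.48% of all tested probes. The FGFR1 KO and WT ranges overlapped for each of the 9 genes, while they did not overlap for 5.1% of all tested probes. By their means, 6 genes were lower and 3 higher in FGFR1 KO, with a median log2 difference of -0.76, beside a median of 0.02 over all tested probes. The plot of log2 ratios by array shows how much of these differences came from single arrays.

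**Figure D1:**
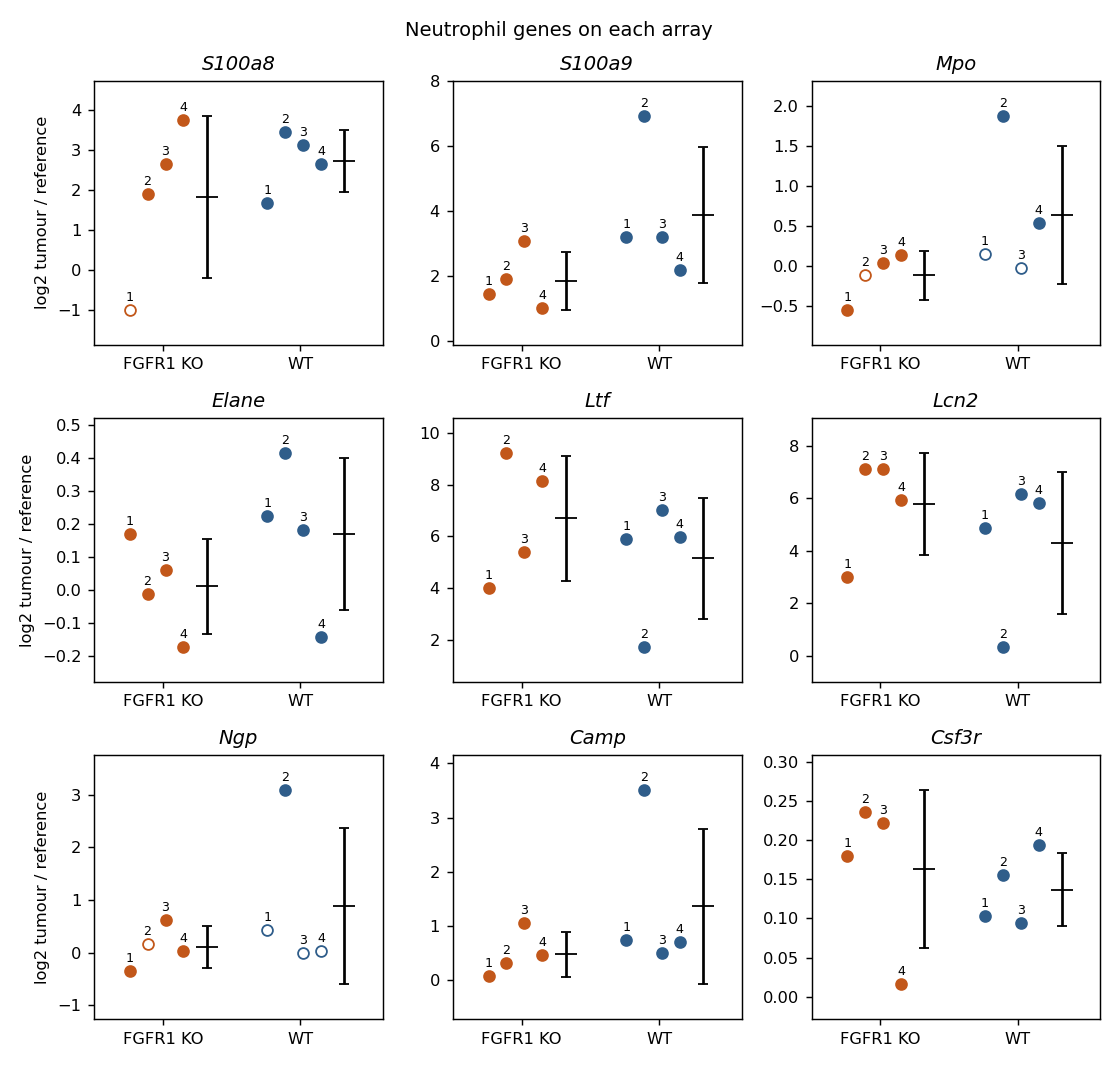
Log2 ratio of tumour over reference for the 9 neutrophil genes, FGFR1 KO left and WT right in each panel. Points are arrays, numbered by replicate, open where red was not well above background, and the bar is the mean ± SD (n = 4 arrays a group); WT 2 is the highest array for S100a9, Mpo, Ngp, Camp and Elane and the lowest for Ltf and Lcn2.

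S100a8 and S100a9 are neighbours on chromosome 3 whose products act as a pair, and the arrays with the highest and lowest values differed between them. The S100a8 log2 ratio was -0.98, 1.90, 2.65 and 3.76 in FGFR1 KO 1 to 4, and 1.69, 3.46, 3.12 and 2.67 in WT 1 to 4. FGFR1 KO 1 was the lowest array and the only one where red was not well above background, and FGFR1 KO 4 was the highest, so the FGFR1 KO values ran below and above all of WT. Means were 1.83 ± 2.03 in FGFR1 KO and 2.74 ± 0.77 in WT (SD, n = 4 each), and limma gave a log2 difference of -0.90 with a 95% interval of -2.94 to 1.14 (adjusted p = 0.784). The exact permutation test over the 8 arrays, two-sided, gave p = 0.543, where the smallest that 4 against 4 arrays allow is 0.0286. Without FGFR1 KO 1 the difference was 0.036.

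The S100a9 log2 ratio was 1.43, 1.91, 3.07 and 1.00 in FGFR1 KO 1 to 4, and 3.20, 6.93, 3.21 and 2.19 in WT 1 to 4. WT 2 was by far the highest array, and of the FGFR1 KO arrays only FGFR1 KO 3, at 3.07, exceeded the lowest WT value. Means were 1.85 ± 0.89 in FGFR1 KO and 3.88 ± 2.09 in WT (SD, n = 4 each). The log2 difference of -2.03 had the smallest p of the 9 genes, with a 95% interval of -4.16 to 0.11 (limma, unadjusted p = 0.0600, adjusted p = 0.605; exact permutation p = 0.0571). Without WT 2 it was -1.01, with a narrower 95% interval of -2.10 to 0.07 and a similar p (limma, unadjusted p = 0.0630, adjusted p = 0.590). The green signal of this probe was well above background on 5 of the 8 arrays, and its spot was in column 80 of row 172, close to the edge of the area with bright negative controls.

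The 250 bases before the start of S100a8 and of S100a9, from RefSeq on GRCm38.p6, are shown because the genes lie side by side and their values differed across arrays. Each runs 5′ to 3′ on the strand of its gene, with S100a8 at chr3:90668821-90669070 on the plus strand and S100a9 at chr3:90695722-90695971 on the minus strand.
S100a8: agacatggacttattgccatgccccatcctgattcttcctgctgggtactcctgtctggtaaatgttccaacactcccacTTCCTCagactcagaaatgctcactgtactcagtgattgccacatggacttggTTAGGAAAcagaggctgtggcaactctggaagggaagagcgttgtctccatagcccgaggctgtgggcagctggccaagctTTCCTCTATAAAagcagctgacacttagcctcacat
S100a9: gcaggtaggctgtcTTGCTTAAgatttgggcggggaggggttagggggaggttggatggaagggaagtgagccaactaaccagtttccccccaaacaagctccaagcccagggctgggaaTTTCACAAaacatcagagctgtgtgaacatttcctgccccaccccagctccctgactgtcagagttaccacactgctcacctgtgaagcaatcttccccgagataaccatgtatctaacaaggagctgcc
Capitals mark matches, on either strand, to 3 short motifs. TATAAA is the core of the TATA box, TTNNGNAA is a core shared by sites of the C/EBP factors of the granulocyte lineage, and GAGGAA is the box read by the ETS factor PU.1. S100a8 held 1 TATAAA, 1 TTNNGNAA and 2 GAGGAA, and 1 of the GAGGAA matches, read on the opposite strand, touched the TATAAA without overlap. S100a9 held 2 TTNNGNAA and neither of the others in this window. Among 32851 mouse promoters of the same length, 12.4% held TATAAA, 36.8% TTNNGNAA and 23.3% GAGGAA, and among the 9 genes 1, 5 and 6 did. A match describes letters only and is no evidence of binding.

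Of the primary granule genes, Mpo, which encodes myeloperoxidase, was dim, and Elane, which encodes neutrophil elastase, hardly varied. The Mpo log2 ratio was -0.55, -0.11, 0.04 and 0.14 in FGFR1 KO 1 to 4, and 0.15, 1.88, -0.02 and 0.54 in WT 1 to 4. WT 2 was the highest array, and red was well above background on 3 FGFR1 KO and 2 WT arrays. FGFR1 KO 3 passed with a background-subtracted red signal of 40, and WT 1 did not pass with 91. Means were -0.12 ± 0.30 in FGFR1 KO and 0.64 ± 0.86 in WT (SD, n = 4 each), a log2 difference of -0.76 with a 95% interval of -1.65 to 0.13 (limma, adjusted p = 0.635; exact permutation p = 0.114). It was -0.34 without WT 2.

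The Elane log2 ratio was 0.17, -0.01, 0.06 and -0.17 in FGFR1 KO 1 to 4, and 0.22, 0.42, 0.18 and -0.14 in WT 1 to 4. All 8 values lay within 0.59 of each other on the log2 scale, a narrower range than on most probes, since 18.7% of tested probes had a smaller one. The log2 difference was -0.16 with a 95% interval of -0.52 to 0.20 (limma, adjusted p = 0.786; exact permutation p = 0.257). Both channels were well above background on all 8 arrays at this probe, so the reference RNA gave signal there too. Whether this probe follows the level of Elane in the tumours was not tested.

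Of the secondary granule genes, Camp, the cathelicidin precursor, and Ngp, neutrophilic granule protein, shared a pattern in which 1 array held nearly all of the variation. The Camp log2 ratio at its brighter probe was 0.07, 0.32, 1.06 and 0.47 in FGFR1 KO 1 to 4, and 0.74, 3.51, 0.50 and 0.71 in WT 1 to 4. At the second probe, which lay outside the area with bright negative controls, it was 0.13, 0.31, 0.32 and 0.35 in FGFR1 KO 1 to 4, and 0.34, 3.41, -0.18 and 0.16 in WT 1 to 4, with red not well above background on WT 3. Both probes put WT 2 far above the other 7 arrays, and the second one put WT 3 and WT 4 among the lower arrays where the first had not.

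The Camp log2 difference was -0.88 with a 95% interval of -2.30 to 0.53 at the brighter probe (limma, adjusted p = 0.715; exact permutation p = 0.257). It was -0.65 at the second probe (limma, adjusted p = 0.799; exact permutation p = 0.8). Without WT 2 it was -0.17 at the brighter probe.

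The Ngp log2 ratio was -0.34, 0.16, 0.63 and 0.02 in FGFR1 KO 1 to 4, and 0.43, 3.09, -0.00 and 0.03 in WT 1 to 4. Red was well above background on FGFR1 KO 1, 3 and 4 and on WT 2 alone of the WT arrays. The background-subtracted red signal was 17 on FGFR1 KO 1, which passed, and 68 and 49.5 on WT 1 and WT 3, which did not. Passing therefore does not mean more signal than on the arrays that failed, and values other than that of WT 2 were dim in both groups. Means were 0.12 ± 0.40 in FGFR1 KO and 0.89 ± 1.48 in WT (SD, n = 4 each), with a log2 difference of -0.77 and a 95% interval of -2.22 to 0.69 (limma, adjusted p = 0.746; exact permutation p = 0.457). It was -0.03 without WT 2 and 0.10 without WT 1 and WT 2.

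The other 2 secondary granule genes, Ltf, which encodes the iron-binding protein lactoferrin, and Lcn2, which encodes lipocalin 2, a protein that binds bacterial iron carriers, went the other way on WT 2. The Ltf log2 ratio was 4.02, 9.21, 5.39 and 8.15 in FGFR1 KO 1 to 4, and 5.89, 1.73, 7.01 and 5.98 in WT 1 to 4. WT 2 was the lowest array and FGFR1 KO 1 the next, and FGFR1 KO 2 and FGFR1 KO 4 were above all of WT. Means were 6.69 ± 2.40 in FGFR1 KO and 5.15 ± 2.34 in WT (SD, n = 4 each), and the log2 difference of 1.54 had a 95% interval of -1.60 to 4.68 (limma, adjusted p = 0.763; exact permutation p = 0.4). Without WT 2 it was 0.40 and without FGFR1 KO 1 it was 2.43. Its range of 7.48 over the arrays was wider than on 99.8% of tested probes, and its green signal was well above background on 5 of 8 arrays.

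The Lcn2 log2 ratio was 3.01, 7.12, 7.11 and 5.95 in FGFR1 KO 1 to 4, and 4.87, 0.34, 6.17 and 5.84 in WT 1 to 4. WT 2 and FGFR1 KO 1 were again the 2 lowest arrays, and the other 6 lay between 4.87 and 7.12. Its background-subtracted red signal was 22281, 70717.5, 87550 and 86310 in FGFR1 KO 1 to 4, and 46244.5, 1440, 76801.5 and 77808.5 in WT 1 to 4. The WT 2 signal was little above the 1338.5 of the brightest of 96 negative controls in the same area of that array, but far above their median of 6.25. Means were 5.80 ± 1.94 in FGFR1 KO and 4.31 ± 2.70 in WT (SD, n = 4 each), and the log2 difference of 1.49 had a 95% interval of -1.62 to 4.60 (limma, adjusted p = 0.769; exact permutation p = 0.457). It was 0.17 without WT 2 and -0.21 without WT 1 and WT 2.

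The promoters of these 4 genes are printed because they form 2 pairs with opposite values on WT 2, in the same frame as above. On GRCm38.p6, Camp is at chr9:109849457-109849706 on the minus strand, Ngp at chr9:110419558-110419807 on the plus strand, Ltf at chr9:111019042-111019291 on the plus strand and Lcn2 at chr2:32387740-32387989 on the minus strand.
Camp: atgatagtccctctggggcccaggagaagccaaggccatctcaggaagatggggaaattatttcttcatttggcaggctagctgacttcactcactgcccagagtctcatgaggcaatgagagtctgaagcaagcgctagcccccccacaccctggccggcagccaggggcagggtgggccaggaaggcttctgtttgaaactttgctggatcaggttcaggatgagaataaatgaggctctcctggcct
Ngp: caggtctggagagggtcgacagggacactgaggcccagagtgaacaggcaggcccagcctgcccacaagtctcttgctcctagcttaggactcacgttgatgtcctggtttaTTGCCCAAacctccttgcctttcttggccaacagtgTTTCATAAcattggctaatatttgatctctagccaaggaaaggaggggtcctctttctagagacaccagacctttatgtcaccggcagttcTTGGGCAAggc
Ltf: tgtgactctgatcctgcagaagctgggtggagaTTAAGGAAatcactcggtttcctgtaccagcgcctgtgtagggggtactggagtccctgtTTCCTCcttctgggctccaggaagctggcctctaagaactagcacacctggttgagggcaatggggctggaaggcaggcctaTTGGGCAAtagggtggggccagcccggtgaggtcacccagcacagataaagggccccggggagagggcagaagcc
Lcn2: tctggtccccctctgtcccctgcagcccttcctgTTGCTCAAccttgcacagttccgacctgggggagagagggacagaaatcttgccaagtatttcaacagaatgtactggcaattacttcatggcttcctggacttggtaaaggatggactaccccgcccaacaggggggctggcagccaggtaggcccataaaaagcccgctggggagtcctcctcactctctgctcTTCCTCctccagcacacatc
Ngp held 3 TTNNGNAA matches, Ltf 2 and Lcn2 1. Ltf and Lcn2 also held 1 GAGGAA each, which Ngp and Camp did not. The pairs were formed by their values on WT 2, and a link between these motifs and those values was not tested. Camp held none of the 3 motifs in these 250 bases, which says nothing about binding elsewhere.

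Csf3r, whose product carries the signal of the main neutrophil growth factor, had the steadiest log2 ratio of the 9 genes at its probe. Its log2 ratio was 0.18, 0.24, 0.22 and 0.02 in FGFR1 KO 1 to 4, and 0.10, 0.15, 0.09 and 0.19 in WT 1 to 4. The groups overlapped and all 8 values lay within 0.22, a range smaller than on all but 0.666% of tested probes. The log2 difference was 0.03 with a 95% interval of -0.25 to 0.30 (limma, adjusted p = 0.958; exact permutation p = 0.714). As at Elane, red and green were well above background on all 8 arrays at this probe. Background-subtracted signals were 14457 to 32194 in red and 25302.5 to 52925 in green, so the human reference was bright too. Whether this probe follows the level of Csf3r in the tumours was not tested.

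**Figure D2:**
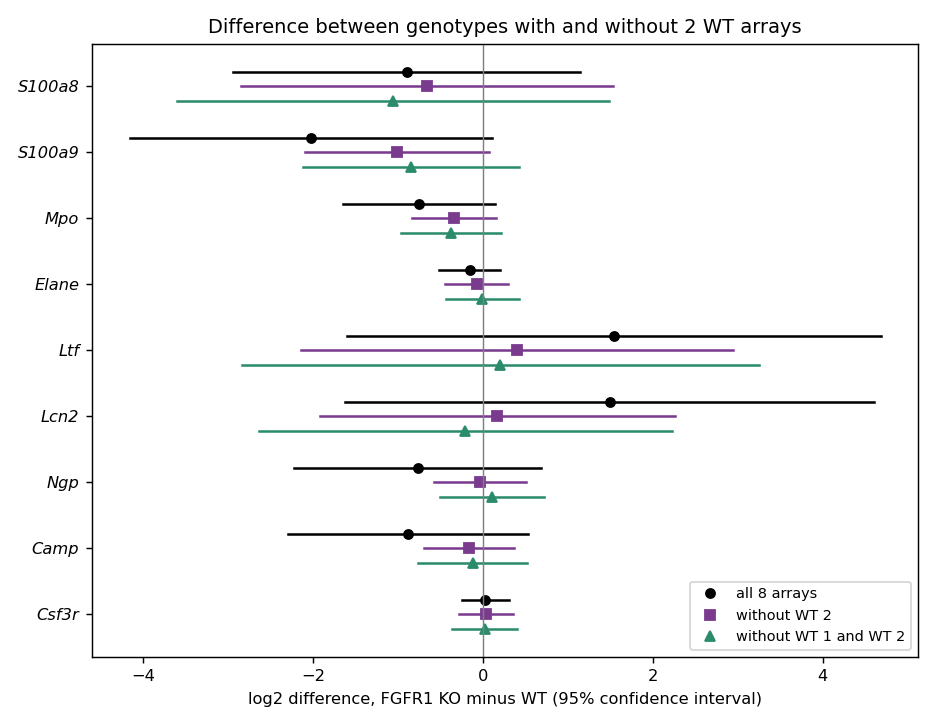
Log2 difference, FGFR1 KO minus WT, with the 95% confidence interval from limma for each of the 9 genes, over all 8 arrays (circles), without WT 2 (squares) and without WT 1 and WT 2 (triangles). Every interval spans 0, and the Ltf value is 1.54 over all arrays and 0.40 without WT 2.

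WT 2 was the highest of the 8 arrays for 5 of the 9 genes (S100a9, Mpo, Elane, Ngp and Camp) and the lowest for Ltf and Lcn2. Of 39139 tested probes with a value on every array, WT 2 was the highest at 22.9% and the lowest at 21.6%. Among other neutrophil and S100 genes it was the highest for 3 of 19 tested granule genes (15.8%), 1 of 13 surface receptors (7.69%), 1 of 6 oxidase subunits, 1 of 7 transcription factors, 0 of 4 growth factors and chemoattractants and 4 of 16 S100 genes and receptors. Markers of other cell types moved on the same array. The skeletal muscle list, with contractile genes such as Acta1 and Ckm, had a median log2 ratio of -0.24 to 0.35 on FGFR1 KO arrays, and of 2.38, 8.63, -0.03 and -0.01 on WT 1 to 4. The adipocyte list, with Adipoq and Plin1, was at 0.06 to 0.43 on FGFR1 KO arrays, and at 3.64, 4.30, 0.43 and 0.41 on WT 1 to 4. The erythroid list, with the haemoglobin genes, was at 2.89, 2.89, 7.39 and 3.39 on FGFR1 KO 1 to 4, and at 5.92, 8.33, 4.94 and 4.62 on WT 1 to 4.

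WT 2 was the highest array for 5 of 6 tested muscle, 6 of 6 adipocyte and 6 of 6 erythroid markers. In contrast, the milk-secreting list, with the casein genes, was at 1.09, 7.35, 5.88 and 6.23 on FGFR1 KO 1 to 4, and at 5.03, 0.24, 5.16 and 4.31 on WT 1 to 4. The luminal list, with Krt8 and Epcam, which should mark the tumour epithelium, was at 3.05, 2.63, 2.62 and 2.35 on FGFR1 KO 1 to 4, and at 1.57, -1.61, 2.19 and 2.56 on WT 1 to 4. WT 2 was thus the array with the lowest epithelial and the highest muscle, fat and red cell signal, the array on which S100a9, Mpo, Ngp and Camp were highest and Ltf and Lcn2 lowest.

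The summed red signal of each list, as log2, also ranged widely. It ran over 13.17 to 18.98 on FGFR1 KO and 11.08 to 16.51 on WT arrays for the milk-secreting list, and over 15.08 to 16.64 on FGFR1 KO and 10.81 to 16.40 on WT arrays for the luminal list. For the erythroid list it ran over 13.58 to 17.90 on FGFR1 KO and 15.73 to 18.65 on WT arrays, and for the muscle list over 10.29 to 11.46 on FGFR1 KO and 10.61 to 19.32 on WT arrays. For the adipocyte list it ran over 10.64 to 11.59 on FGFR1 KO and 11.23 to 16.74 on WT arrays. Each of these 5 lists had every probe-bearing marker above background on at least 1 array. All 10 milk-secreting, 7 luminal and 6 adipocyte markers were tested, as were 6 of 7 muscle and 6 of 7 erythroid markers with a probe. Their part in the values of the 9 genes was not tested beyond the relations given next.

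The macrophage list, which shares the myeloid lineage, did not stand out on WT 2, with medians of 0.32 to 1.26 on FGFR1 KO and 0.60 to 1.43 on WT arrays and summed red signals, as log2, of 14.17 to 14.56 on FGFR1 KO and 14.13 to 15.01 on WT arrays. The monocyte list, whose cells also contain S100a8 and S100a9, was lowest on WT 2, with medians of 0.29 to 1.14 on FGFR1 KO arrays, and of 1.28, 0.05, 1.06 and 0.37 on WT 1 to 4. Its summed red signal, as log2, was 12.23 to 13.04 on FGFR1 KO and 11.47 to 12.92 on WT arrays, with WT 2 the lowest. Of the markers that define neutrophils on their surface, Cxcr2 was measured on all arrays, and Ly6g had no matched probe. Cxcr2, chosen here after its values were seen and with its spot in the area of bright negative controls, was at 0.30 to 0.41 in FGFR1 KO, and at 0.86, 0.55, 0.07 and 0.03 in WT 1 to 4. Fpr1, the 1 of the 13 tested receptors that was highest on WT 2 and also in that area, was at -0.08 to 0.41 in FGFR1 KO, and at 0.62, 1.72, 0.65 and 0.03 in WT 1 to 4. Red was well above background for Fpr1 on all 4 FGFR1 KO arrays but on WT 2 alone of the WT arrays.

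**Figure D3:**
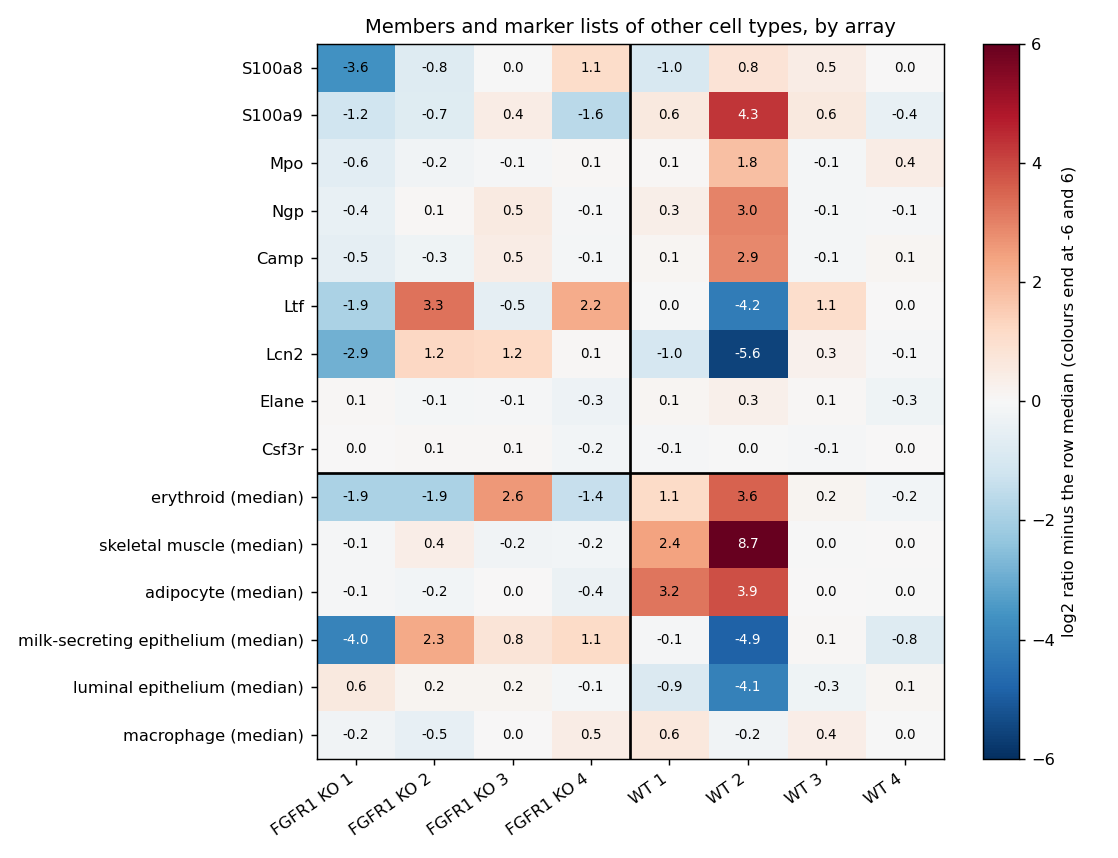
Log2 ratio minus the median of its row on each array, FGFR1 KO left and WT right, for the 9 neutrophil genes above the line and for the medians of 6 marker lists of other cell types below it. WT 2 is red for S100a9, Mpo, Ngp and Camp and for erythroid, muscle and adipocyte lists, and blue for Ltf, Lcn2 and for the milk-secreting and luminal lists.

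Relations between the 9 genes across arrays were computed for all 36 pairs. Because WT 2 lay apart for several genes, values over the other 7 arrays are given, and none of the 36 pairs passed an adjusted p of 0.05 there. Ngp and Camp had r = 0.87 (exact permutation p = 0.0153, adjusted p = 0.551) and rho = 0.75 (exact permutation p = 0.0663, adjusted p = 0.95), and r = 0.76 without FGFR1 KO 3 also. At the second Camp probe, r with Ngp over the 7 arrays was 0.48 (exact permutation p = 0.263, not adjusted) and rho 0.57 (exact permutation p = 0.2). Ltf and Lcn2 had r = 0.67 (exact permutation p = 0.0948, adjusted p = 0.565) and rho = 0.61 (exact permutation p = 0.167, adjusted p = 0.95). For this pair r was 0.57 without WT 2 and FGFR1 KO 2. S100a8 and S100a9 had r = 0.18 (exact permutation p = 0.745, adjusted p = 0.884) and rho near 0. Over all 8 arrays r was 0.36, and without FGFR1 KO 1, where S100a8 was not well above background, and FGFR1 KO 4 it was 0.66 (exact permutation p = 0.133), so for this pair the value depends on which arrays are kept.

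Relations of the 9 genes to the 11 marker lists, 99 in all, were computed after their values had been seen. By r, 6 of the 99 passed an adjusted p of 0.05 over all 8 arrays: S100a9, Ngp and Camp with the erythroid list, S100a9 with the adipocyte list, and Ltf and Lcn2 with the milk-secreting list. Camp with the erythroid list also passed by rho. None of the 99 passed over the 7 arrays without WT 2. For Lcn2 and Ltf against the milk-secreting list, FGFR1 KO 1 and WT 2 lay apart, low on both axes, so values within the remaining arrays are given. Over the other 6 arrays Lcn2 had r = 0.65 (exact permutation p = 0.158, adjusted p = 0.812) and rho = 0.77 (exact permutation p = 0.103, adjusted p = 0.784). Over the same 6 arrays Ltf had r = 0.77 (exact permutation p = 0.0708, adjusted p = 0.812) and rho = 0.60 (exact permutation p = 0.242, adjusted p = 0.795). Camp at its brighter probe and the erythroid list had r = 0.92 over 7 arrays (exact permutation p = 0.00298, adjusted p = 0.295) and rho = 0.96 (exact permutation p = 0.00278, adjusted p = 0.275), and r = 0.85 without FGFR1 KO 1 and FGFR1 KO 3. At the second Camp probe, outside the area with bright negative controls, the same relation had r = 0.07 (exact permutation p = 0.874, not adjusted) and rho = 0.25 (exact permutation p = 0.595), so it was not seen at both probes. FGFR1 KO 3, the highest FGFR1 KO array for Ngp, S100a9 and the brighter Camp probe, was also the highest FGFR1 KO array for the erythroid list, while at the second Camp probe FGFR1 KO 4 was the highest.

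**Figure D4:**
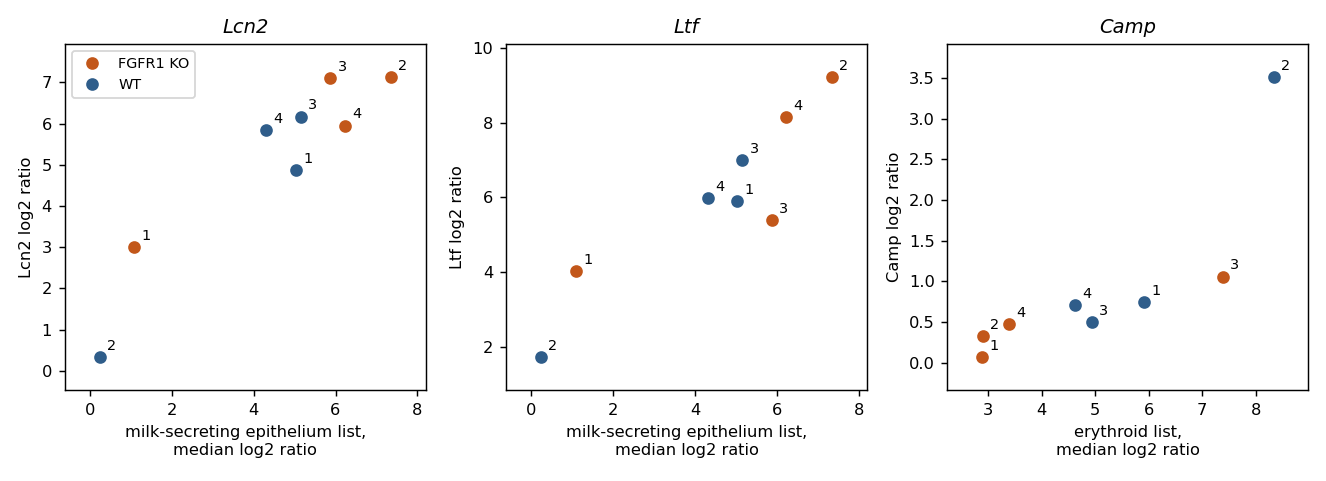
Log2 ratio of Lcn2, Ltf and Camp (vertical axes) against the median log2 ratio of a marker list (horizontal axes), 1 point per array numbered by replicate, FGFR1 KO and WT in different colours, with Camp at its brighter probe. FGFR1 KO 1 and WT 2 lie low on both axes for Lcn2 and Ltf, and WT 2 lies at 3.51 for Camp with the other 7 arrays at 1.06 or less.

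Other genes of neutrophils and of the S100 family were taken as 6 lists of 85 genes, of which 81 had a probe and 65 were tested. By limma with adjustment over all probes 0 of the 65 were called, and 10 had an unadjusted p under 0.05, beside 8.48% of all tested probes. By their means 44 were lower and 21 higher in FGFR1 KO. The groups did not overlap for 6 genes with FGFR1 KO lower and 1 with FGFR1 KO higher, 10.8% of the 65, where 2.71% of all tested probes were lower and 2.39% higher without overlap. Adam8, Ncf1 and Ncf4, 3 of those 6 lower genes, had their spots in the area with bright negative controls on the WT arrays.

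Among 19 other granule genes tested, 12 were lower and 7 higher in FGFR1 KO, with a median log2 difference of -0.18. Hp, which encodes haptoglobin, a haemoglobin-binding protein of the plasma that neutrophil granules also store, had the smallest p. Its log2 ratio was 2.90, 1.88, 3.02 and 2.01 in FGFR1 KO 1 to 4, and 4.95, 3.79, 4.79 and 4.47 in WT 1 to 4. Every WT array was above every FGFR1 KO array, and the log2 difference was -2.05 ± 0.34 (SE; limma, adjusted p = 0.142; exact permutation p = 0.0286, the smallest the design allows). Serpinb1a, an inhibitor of neutrophil serine proteases, also did not overlap, at -1.48 ± 0.39 (adjusted p = 0.388), nor did the membrane protease gene Adam8, at -1.17 ± 0.36 (adjusted p = 0.447).

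Of 6 phagocyte oxidase subunit genes, 5 were lower and 1 higher, with a median of -0.28. The cytosolic subunits Ncf4 and Ncf1 had log2 differences of -1.37 ± 0.32 (adjusted p = 0.316) and -0.94 ± 0.29 (adjusted p = 0.451) without overlap, and the membrane subunit Cybb, at -0.39, overlapped. Of 13 surface receptors, 7 were lower and 6 higher, with a median of -0.01. Ltb4r1, the receptor for the chemoattractant leukotriene B4, was the 1 gene higher in FGFR1 KO without overlap, at 0.85 ± 0.21 (adjusted p = 0.347). The complement receptor gene C5ar1 was at 0.46 and the formyl peptide receptor gene Fpr1 at -0.63, each with red well above background on only 1 WT array.

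Of 7 transcription factors, 5 were lower and 2 higher, with a median of -0.21. Cebpa, needed to form granulocytes, was at -0.92 over 3 FGFR1 KO and 4 WT arrays (adjusted p = 0.576), Irf8 at -0.61 and Spi1, which encodes PU.1, at -0.37. Only 4 of 11 growth factor and chemoattractant genes were bright enough to be tested. Csf2, Cxcl2, Cxcl3 and Ppbp did not exceed background clearly on a single array, and of the tested ones Cxcl5 was at 0.22, Cxcl1 at -0.05 and Il1b at -0.01.

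Of 16 other S100 genes and receptors of S100a8 and S100a9, 12 were lower and 4 higher, with a median of -0.15. S100a4, a relative of S100a8 found in fibroblasts and leukocytes, did not overlap between groups, at a log2 difference of -0.90 ± 0.30 (adjusted p = 0.48). The scavenger receptor gene Cd36, which is also strong in adipocytes, was at -2.03 ± 0.97, with its highest values of 2.28 and 4.07 on WT 1 and WT 2, the arrays with the highest adipocyte list. S100b was at -1.11 ± 0.58.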

How the data were processed

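RNA of 4 FGFR1 KO and 4 WT mouse tumours was read on 8 arrays of 2 colours, 1 a sample. Per the file headers, Agilent Feature Extraction 11.0.1.1 read the spots, and its median signals are intensities with no background taken off. The scanner's own ratio, per the file headers, is a log10 value of processed red over processed green. The deposited series matrix followed the scanner's ratio (r from 0.892 to 0.947) and the ratios made here (r from 0.985 to 0.991). Its SD on each array was 1.13 to 1.17 times that of the log2 values computed here, so the deposited scale was taken as log2. Its medians lay at 0.0155, -0.0152, -0.000673 and 0.00487 on the FGFR1 KO arrays 1 to 4, and at -0.0044, -0.0014, -0.00486 and 0.00217 on the WT arrays 1 to 4. No source used here says how the matrix was normalized. The labels disagree on the dyes. The labelling protocol puts tumour RNA in red and the human reference in green, and the label field names only cy3. Green varied less within groups (median SD 0.188 in FGFR1 KO and 0.211 in WT) than red (0.329 in FGFR1 KO and 0.361 in WT), so red was taken as tumour.

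Values were made in R 4.3.3 by limma 3.58.1, with normexp (offset 50) for the background and loess on each array, in which control and outlier spots had weight 0. Replicate spots were averaged per probe. Probes were tested where red was well above background on at least 4 of 8 arrays with at least 3 values a group. lmFit and eBayes compared the groups, two-sided, and the adjusted p covers all 39795 probes tested. Each gene was represented by its brightest tested probe, by mean normalized red. Single genes were also compared by the exact permutation test over 70 splits. The genes named from other lists are up to 3 a list with the smallest p. The fit was tested on simulated data, and precision is limited by how many arrays there are. The 9 genes and the lists were chosen with earlier results of these data known. Alternatives covered the source of the values, background, filters, array weights, blocks and left-out arrays, and those on overlap, on relations and on the counts of the other lists were chosen after seeing the data. Gene names and promoters came from RefSeq tables of GRCm38.p6.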

Additional observations from a re-analysis of the deposited data

Results flagged for a closer look

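There were 56 groups of values, 1 for each probe and genotype, and that of Cebpa in FGFR1 KO had a missing value and was not tested. Of the others, each with 4 arrays, 5 had 1 array farther from the rest than Dixon's 95% critical value allows, and chance gives about 1 in 20. Ngp was at 3.09 on WT 2, with the next WT array at 0.43. Camp was at 3.51 on WT 2 at its brighter probe, with the next at 0.74, and at 3.41 at its second probe, with the next at 0.34. Irf8, a transcription factor of the monocyte lineage, was at 2.57 on WT 1, with the next WT array at 0.50. Adam8 was at 0.69 on WT 3, with the nearest of the others at -0.59. The 3 values of Ngp and Camp belong to 1 array, so they are not separate events.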

How the results depend on the processing

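Of 176 recomputed member differences over 20 settings, 172 kept their direction, and in no setting was any of the 9 genes called, with a lowest adjusted p of 0.422 for S100a9 without WT 4. The 4 that turned were S100a8 at 0.036 without FGFR1 KO 1 (-1.54 to 0.036 with each array left out), Lcn2 at -0.21 and Ngp at 0.10 without WT 1 and WT 2, and Csf3r at -0.044 with Agilent's log ratio. The filters on dim probes, trend and robust eBayes and the replicate block could not change a difference, only its error or adjustment. The same holds for the mean over probes at genes with 1 probe, and for leaving out the bright area at probes outside it. Those values kept their direction by construction, so the count of 172 overstates how stable the directions are. The unadjusted limma p of S100a9 was 0.0411 with Agilent's log ratio and 0.0412 with the replicate block. It was 0.0444 without FGFR1 KO 3 and 0.0247 without WT 4. For Mpo it was 0.0411 without WT 3, and every other gene stayed at 0.104 or above. The share of all probes under 0.05 was not computed for these settings. Over all probes, 4 were called, against 0 with Agilent's log ratio, red processed signal alone, red above background on all 8 arrays, trend and robust eBayes, spots in the area with bright negative controls left out, the replicate block, and without WT 1 and WT 2. The count was 11 with array weights and 139 with no filter on dim probes, and 0 to 1 over the fits that left out each array in turn. The cause was not tested.

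Among the 9 genes, groups without overlap numbered 0 to 2 when arrays were left out in turn: S100a9 and Camp without FGFR1 KO 3, Mpo without WT 3, and S100a9 and Elane without WT 4. With fewer arrays, groups fail to overlap more easily. The share of all tested probes without overlap was not computed for these settings, so the counts have no background beside them. Of the 36 pairs of genes, 1 was past the threshold over all 8 arrays, Ngp and Camp, and none was past it without FGFR1 KO 4, WT 1, WT 2 or WT 3. The count was 0 with Agilent's log ratio, red processed signal alone, red above background on all 8 arrays, without the spots in that area, and without WT 1 and WT 2, and 0 to 2 with arrays left out in turn. The other lists had 0 calls in each setting run. With red above background required on all 8 arrays S100a8, Mpo and Ngp had no value, and with spots in the area with bright negative controls left out Lcn2 had none and Camp rested on its second probe, at -0.65.

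The replicate numbers were not taken as pairs in the main comparison. Same-numbered arrays of the 2 groups had correlations of -0.039, 0.011, 0.109 and -0.106 of their deviations from the group means, and 2 of 4 correlated best with their own number. These values show no clear pairing but cannot exclude one. With the replicate block 0 members were called. Genes dim in red, such as Ngp and Mpo, have values near background on several arrays. Differences inside their 95% intervals are not excluded by these data. The smallest difference that 4 arrays a group could detect was not computed for these genes.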

Other observations

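The 5 genes whose log2 ratios followed the mean of S100a8 and S100a9 most closely over the 8 arrays, of 10956 compared outside the area with bright negative controls, were Kctd20 (r = 0.98), Lamtor4 (r = 0.96), 2610507B11Rik (r = 0.96), Pldi (r = 0.94) and Psmd12 (r = 0.94), given as a description. Without WT 2 the values were 0.96, 0.93, 0.89, 0.89 and 0.84 in the same order. These arrays are among the 8 by which the genes were picked, so high values there are no separate check. S100a8 and S100a9 themselves had r = 0.36 over the 8 arrays. Psmd12, a proteasome subunit gene, had a log2 ratio of -0.62 to -0.17 on FGFR1 KO arrays, and of -0.16 to 0.80 on WT arrays, without overlap (limma, adjusted p = 0.589). None of the 5 is a neutrophil gene of the lists.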
